A study of Microtus ochrogaster with 40 samples.

Results

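The genes that fix which fast transmitter a neuron releases were followed nucleus by nucleus in prairie voles (Microtus ochrogaster), in the nucleus accumbens. They were chosen by name as the 9 standard transmitter identity genes, and 8 of them were used out of 19130 genes counted; Slc18a3, the vesicular acetylcholine transporter, is not analysed here. The glutamate genes were Slc17a7, Slc17a6 and Slc17a8, the GABA genes were Gad1, Gad2 and Slc32a1, and the cholinergic genes were Chat and Slc5a7. Single-nucleus RNA libraries of 40 animals were used, 1 library for each animal. All animals had been housed with a partner for 16 days, either an opposite-sex mate or a same-sex peer. Of the females, 11 lived with a mate and 8 with a peer, and of the males 11 and 10 (called female mate, female peer and so on), so no group was housed alone. The labels give no genotype, drug treatment or age.

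Neurons load glutamate into vesicles through a vesicular glutamate transporter. Slc17a7 (VGLUT1) serves mainly cortical, hippocampal and amygdalar neurons, Slc17a6 (VGLUT2) mainly thalamic, hypothalamic and midbrain neurons, and Slc17a8 (VGLUT3) scattered populations that include striatal cholinergic interneurons. GABA is made by the decarboxylases GAD67 (Gad1) and GAD65 (Gad2) and packed by the vesicular transporter VGAT (Slc32a1). Acetylcholine is made by choline acetyltransferase (Chat) from choline taken up by the transporter CHT1 (Slc5a7). The principal cells of the accumbens are GABAergic medium spiny neurons of D1 and D2 receptor type, and a small population of large interneurons is cholinergic.

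After filters 178387 nuclei remained, between 1767 and 7666 in a library, with a median of 653 to 2201 unique molecules (UMIs) per nucleus. The library of male mate 2 was the shallowest, and 6375 of its barcodes lay under the 500 UMIs required of a nucleus. Barcode sequences recurred between libraries in 18433 cases, and no 2 libraries shared more than 76. Nuclei were clustered without the transmitter genes and named from other markers, which gave 38 clusters and 16 classes, cluster 18 counted as 1 of them, and left 6.46% of nuclei unnamed. The names follow those markers, with 1 exception. Cluster 18, of 2657 nuclei, scored highest on the parvalbumin interneuron list, but its leading genes were Crabp1, Trh and Kit, and it is called by its number here. Pvalb itself had a pooled level of 75.6 CPM in cluster 18, against 159 and 419 CPM in clusters 16 and 24, which are somatostatin interneuron-like and have both Sst and Pvalb among their leading genes. Nuclei with Sst and nuclei with Pvalb were thus not told apart in these 2 clusters. Cluster 25, the third somatostatin interneuron-like cluster, had Sst at 21251 CPM and Pvalb at 2.08 CPM. Medium spiny neuron-like, interneuron-like and glial classes were all found, and the glutamate neuron-like class held 32776 nuclei. That class made up between 0.623% of the nuclei of male peer 5 and 44.8% of those of female peer 1, with a median of 17.9%.

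Levels are given as CPM, the usual scaling of a gene's UMIs by the total UMIs of the nuclei summed, with the mean and SD over animals that had at least 20 nuclei of the class. CPM of different genes were not set against each other, because the counts are not scaled for transcript length or capture. Differences between classes are descriptions, since the classes were formed from the same nuclei.

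Slc17a7 divided the nuclei sharply. Its level was 1984 ± 292 CPM (SD, n = 40) in glutamate neuron-like nuclei, against 26.4 ± 12.3 (SD, n = 40) in D1 medium spiny neuron-like and 25.9 ± 10.9 (SD, n = 40) in D2 medium spiny neuron-like nuclei. The pooled level was similar across the 4 glutamate neuron-like clusters, between 1773 CPM in cluster 6 and 2082 CPM in cluster 10. An unnamed cluster, number 26, had the highest pooled level at 2604 CPM, and its leading genes were Nr4a2, Fap and Ntng2. The genes whose levels over the 38 clusters were most like that of Slc17a7 were Tbr1 (Pearson r = 0.926), Neurod6 (r = 0.917) and Neurod1 (r = 0.906), all transcription factors of forebrain glutamatergic neurons. These correlations used log2(CPM + 5), and the clusters share libraries.

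Slc17a6 was concentrated in the same class, at 50.4 ± 18.0 CPM (SD, n = 40). Of the 3393 nuclei with a Slc17a6 UMI, 2786 also had a Slc17a7 UMI, which is 82.1%, against 20.1% of the nuclei without Slc17a6. The mix of the transporters differed between clusters. Cluster 10, led by Rxfp2 and Col5a1, had 19.6 Slc17a7 UMIs for each Slc17a6 UMI. Cluster 3, led by Slc30a3 and C1ql3, had 70.0, and cluster 26 had 276. Slc17a6 was most like Nrp2 (r = 0.734), Neurod2 (r = 0.709) and Tafa1 (r = 0.706) across the 38 clusters.

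Slc17a6 also appeared in 2 clusters of GABA gene-bearing nuclei, but mostly not in the same nuclei. In unnamed cluster 21, led by Gpr101 and Gpr165, the pooled Slc17a6 level was 90.1 CPM. Of its 145 nuclei with Slc17a6, 15.9% had a Gad1 UMI and 11.0% a Slc32a1 UMI. Among its nuclei without Slc17a6 the shares were 76.4% for Gad1 and 77.8% for Slc32a1, although those nuclei were shallower, with a median of 2550 UMIs against 3081. Somatostatin interneuron-like cluster 24, which Pvalb also leads, showed the same division, with Gad1 in 14.8% of 54 nuclei with Slc17a6 and in 83.4% of the others. In both clusters, nuclei with Slc17a6 and nuclei with GABA genes were grouped together but were mostly different nuclei.

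**Figure D1:**
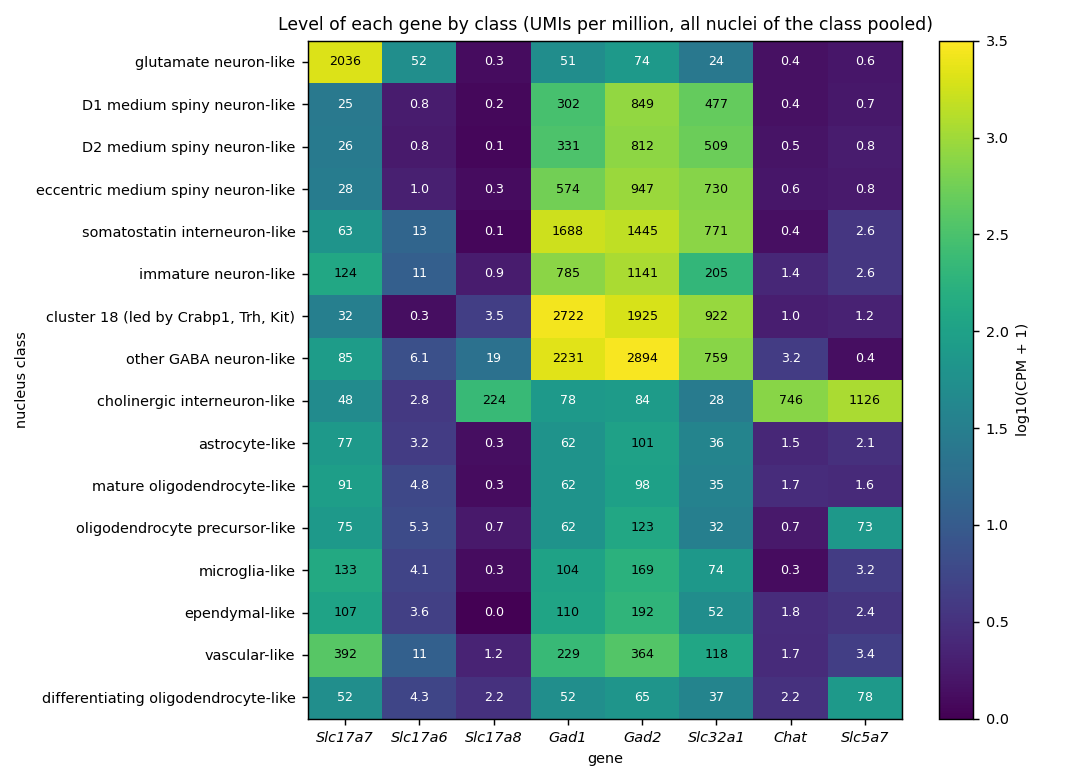
Pooled level of each gene (columns) in each class of nuclei (rows) in CPM, printed in the cells and coloured on a log10(CPM + 1) scale. Slc17a7 reaches 2036 CPM in glutamate neuron-like nuclei, and Chat 746 and Slc5a7 1126 CPM in cholinergic interneuron-like nuclei. The GABA genes fill the medium spiny neuron-like and GABA interneuron-like rows, but not the cholinergic interneuron-like row.

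The GABA genes were high in all medium spiny neuron-like and GABA interneuron-like classes, with different proportions. Gad2 was 846 ± 102 CPM (SD, n = 40) in D1 medium spiny neuron-like nuclei and 811 ± 94.3 (SD, n = 40) in D2 medium spiny neuron-like nuclei. It was 1929 ± 350 (SD, n = 39) in cluster 18. Gad1 differed more between these classes, from 302 ± 39.9 CPM (SD, n = 40) in D1 to 334 ± 45.8 (SD, n = 40) in D2 medium spiny neuron-like nuclei and 2729 ± 461 (SD, n = 39) in cluster 18. The lowest animal in cluster 18, at 2087 CPM, lay above the highest of either medium spiny class, at 368 and 426 CPM. Slc32a1 varied less, from 463 ± 93.4 CPM (SD, n = 40) in D1 medium spiny neuron-like to 879 ± 227 (SD, n = 39) in cluster 18.

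The ratio of Gad1 to Gad2 UMIs within an animal differed between some classes and overlapped between others. It averaged 0.360 ± 0.0568 (SD, n = 40) in D1 and 0.416 ± 0.0705 (SD, n = 40) in D2 medium spiny neuron-like nuclei, neighbours that differed by less than 1 SD. The SDs of these ratios, and of those of Slc32a1 to Gad2 below, are between animals. Differences between classes within the same animal were not examined. Eccentric medium spiny neuron-like nuclei, a D1-like type with its own marker set, had a ratio of 0.619 ± 0.106 (SD, n = 40). Within that class cluster 13, led by Col14a1 and Shisa8, had 1.12 ± 0.212 (SD, n = 39), and cluster 5, led by Foxp2 and Otof, had 0.498 ± 0.109 (SD, n = 40). Somatostatin interneuron-like nuclei had 1.17 ± 0.143 (SD, n = 40) as a class, which pools unlike clusters. Clusters 16 and 24, where Pvalb is also among the leading genes, had 1.27 ± 0.159 (SD, n = 40) and 1.29 ± 0.305 (SD, n = 38), and cluster 25, led by Npy, Nos1 and Sst, had 0.591 ± 0.245 (SD, n = 39). Cluster 18 had 1.44 ± 0.196 (SD, n = 40). In nuclei of all classes together the ratio was 0.589 ± 0.0817 (SD, n = 40), and in astrocyte-like nuclei it was 0.611 ± 0.141 (SD, n = 36). Immature neuron-like nuclei, at 0.665 ± 0.187 (SD, n = 38), and glutamate neuron-like nuclei, at 0.697 ± 0.136 (SD, n = 39), lay within 1 SD of the eccentric and astrocyte-like values. Gad1, Gad2 and Slc32a1 were most like each other across clusters, with r = 0.945 between Gad1 and Gad2. The nearest gene outside the GABA genes was Dlx5, a transcription factor of developing GABA neurons, with r = 0.851 to each of Gad1 and Gad2.

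The ratio of Slc32a1 to Gad2 UMIs also differed between classes. It was 0.194 ± 0.0876 (SD, n = 38) in immature neuron-like nuclei and 0.280 ± 0.125 (SD, n = 39) in other GABA neuron-like nuclei, neighbours within 1 SD of each other. It was 0.469 ± 0.134 (SD, n = 40) in cluster 18 and 0.554 ± 0.128 (SD, n = 40) in D1 medium spiny neuron-like nuclei. In immature neuron-like nuclei Gad2 was 1124 ± 271 CPM and Slc32a1 206 ± 71.4 CPM (SD, n = 39).

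Chat marked 1 class of 1055 nuclei, found in every animal with between 3 and 56 nuclei. Its level in cholinergic interneuron-like nuclei was 749 ± 144 CPM (SD, n = 25), and the mean was at most 4.03 CPM in the other classes. Slc5a7 was 1119 ± 212 CPM (SD, n = 25) in the same class. Slc17a8 was 219 ± 71.5 CPM (SD, n = 25) there, and its next highest class was other GABA neuron-like, led by Vip, at 21.4 ± 27.5 CPM (SD, n = 27). Across the 38 clusters Slc17a8 was most like Chat (r = 0.943).

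Within single cholinergic interneuron-like nuclei the 3 genes overlapped. Chat was detected in 712 nuclei, Slc5a7 in 776 and Slc17a8 in 374. Of the 374 nuclei with Slc17a8, 300 also had Chat, which is 80.2%, while Chat was found in 60.5% of the nuclei without Slc17a8. The nuclei with Slc17a8 were deeper, with a median of 3166 UMIs against 1120, and the part of depth in this overlap was not tested. How GABA genes in this class compare with glia depends on the scale. Gad2 was 84.9 ± 53.9 CPM (SD, n = 25) in cholinergic interneuron-like and 101.1 ± 36.1 CPM (SD, n = 39) in astrocyte-like nuclei. Per 100 nuclei it gave 19.1 ± 12.3 UMIs (SD, n = 25) in the former, at a median depth of 2059 UMIs, and 8.40 ± 2.58 (SD, n = 39) in the latter, at 778 UMIs.

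Slc5a7 had a second site outside neurons. In oligodendrocyte precursor-like nuclei it was 71.1 ± 29.9 CPM (SD, n = 39), and the lowest of these animals had 24.0 CPM. In mature oligodendrocyte-like nuclei it was 1.59 ± 2.79 CPM (SD, n = 40), in microglia-like 3.18 ± 6.30 (SD, n = 39) and in astrocyte-like 2.16 ± 3.30 (SD, n = 39). The class of 378 differentiating oligodendrocyte-like nuclei had a pooled level of 78.2 CPM. At least 1 Slc5a7 UMI was seen in 291 of the 4797 precursor-like nuclei, at a median depth of 811 UMIs. The share was 6.07%, against 0.131% of mature oligodendrocyte-like nuclei at a median depth of 666 UMIs. Chat had 3 UMIs in all precursor-like nuclei, and none of the 291 nuclei with Slc5a7 held one. Among all nuclei, 294 of the 1693 nuclei with any Chat or Slc5a7 UMI were oligodendrocyte precursor-like and 889 were cholinergic interneuron-like. Requiring 2 UMIs left 14 and 734 of 798.

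Each nucleus was next assigned a transmitter category from the genes it held. Because a deeper nucleus shows more genes, every nucleus was thinned at random to 500 UMIs, and the values without thinning are given beside these. At 500 UMIs 12.6% of nuclei had glutamate genes only, 34.6% GABA genes only, 0.534% any cholinergic gene and 1.29% glutamate and GABA genes, while 51.0% had none of the 8 genes. Without thinning the shares were 16.0%, 50.4%, 0.949%, 5.71% and 27.1%. Glutamate neuron-like nuclei made up 85.4% of all nuclei with glutamate genes only when nuclei were not thinned. D1 and D2 medium spiny neuron-like nuclei made up 29.9% and 28.3% of those with GABA genes only. An empty category was common in neurons as well, at 46.9% of D1 medium spiny neuron-like nuclei thinned to 500 UMIs and 7.96% of the same nuclei not thinned.

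Nuclei with glutamate and GABA genes numbered 10188 at 1 UMI of each and 1722, or 0.965%, at 2 UMIs of each. Their share was higher at greater depth, from 2.52% of nuclei with 500 to 1000 UMIs to 8.14% at 2000 to 4000 UMIs and 36.9% at 8000 UMIs or more. Barcodes called as doublets held both groups of genes in 13.7% of 7608 cases. Among nuclei with at least 5 UMIs of the glutamate and GABA genes together, 62.8% had under 10% of those UMIs from glutamate genes and 27.6% had over 90%. The 9.61% that lay between compare with 22.8% of called doublets. Glutamate neuron-like nuclei were less cleanly divided, with 15.5% between, and those of cluster 18 more so, with 2.74%. In glutamate neuron-like cluster 6, whose nuclei were shallow for their libraries, 24.7% lay between. A further 12.1% of its nuclei had under 10% of those UMIs from glutamate genes, against 1.34% in the whole glutamate neuron-like class.

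**Figure D2:**
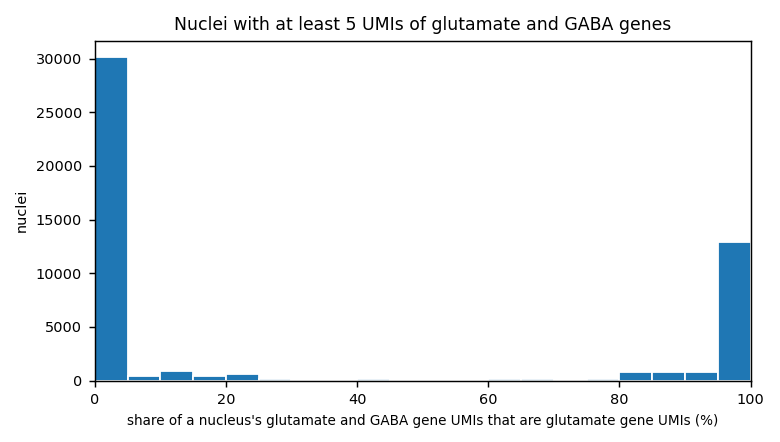
Number of nuclei (vertical axis) by the percent of their glutamate and GABA gene UMIs that came from glutamate genes (horizontal axis), for 48768 nuclei with at least 5 such UMIs. The bars at both ends hold 30149 and 12883 nuclei, and the bins in the middle hold few.

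Nuclei that should lack a gene still showed a few of its UMIs, which serve here as its background level. Free RNA and doublets that were not removed could both contribute to it and were not told apart. In mature oligodendrocyte-like nuclei Slc17a7 gave 7.22 ± 4.56 UMIs per 100 nuclei (SD, n = 40), Gad2 8.42 ± 5.24 (SD, n = 40) and Gad1 4.87 ± 3.80 (SD, n = 40). Slc17a6 gave 0.330 ± 0.406, Chat 0.149 ± 0.272, Slc5a7 0.124 ± 0.217 and Slc17a8 0.0321 ± 0.118 UMIs per 100 nuclei (SD, n = 40). D1 medium spiny neuron-like nuclei had 6.29 ± 2.96 Slc17a7 UMIs per 100 nuclei (SD, n = 40), close to the oligodendrocyte-like level although they held a median of 2116 UMIs against 666. Vascular-like nuclei, at a median of 1136.5 UMIs, stood apart with 76.5 ± 65.7 Slc17a7 UMIs per 100 nuclei (SD, n = 38), and 20.2% of them had at least 1. The GABA genes were raised there too. Gad2 gave 84.4 ± 61.5, Gad1 52.3 ± 54.0 and Slc32a1 26.1 ± 18.2 UMIs per 100 nuclei (SD, n = 38). Clusters 30 and 32 of the microglia-like and oligodendrocyte-like classes also stood apart. Cluster 30 had pooled levels of 94.1 Gad2 and 55.9 Slc17a7 UMIs per 100 nuclei, and cluster 32 had 77.6 and 5.59. Without these 2 clusters the pooled Gad2 level of both classes together went from 8.92 to 7.07 UMIs per 100 nuclei, and that of Slc17a7 from 7.82 to 7.14. The mean of Slc17a7 over animals went from 7.87 to 7.98, while its median went from 7.12 to 6.03. Male mate 2 was the highest animal both times, at 22.1 and then 51.9 per 100 nuclei. Most of its nuclei of these 2 classes lay in clusters 30 and 32, so its 51.9 rests on few nuclei. The mean of 7.98 includes that value. The mean over animals went from 10.0 to 7.14 for Gad2, from 5.96 to 4.23 for Gad1 and from 3.87 to 2.47 for Slc32a1.

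Male peer 5 had almost no glutamate neuron-like nuclei, 27 of 4334, and its other nuclei almost lacked Slc17a7. Its D1 medium spiny neuron-like class held 1 Slc17a7 UMI in 1042 nuclei, or 0.0960 per 100, where the other 39 animals ranged from 2.13 to 16.6 with a median of 5.86. Its D2 medium spiny neuron-like nuclei had 0.302 per 100 against a lowest value of 2.57 elsewhere. Its eccentric medium spiny neuron-like nuclei had 0.372 against 1.48, astrocyte-like nuclei 0.668 against 1.504, and mature oligodendrocyte-like nuclei 0.337 against 1.46. This animal lay below all others in these 5 classes. Its 130 microglia-like nuclei held 0 Slc17a7 UMIs, which allows up to 2.31 per 100, and the lowest of the other animals was also at 0 there. GABA genes did not follow in these classes. Gad2 gave 221 UMIs per 100 D1 medium spiny neuron-like nuclei, against a median of 208 in the other animals. It gave 9.76 per 100 mature oligodendrocyte-like nuclei against 7.00. The 27 glutamate neuron-like nuclei of male peer 5 were unlike those of other animals. Slc17a7 gave 152 UMIs per 100, under the lowest other animal at 160. Gad2 gave 66.7 and Slc32a1 40.7, above the highest other animals at 52.6 and 12.9. The background was also compared over all 40 animals in UMIs per 100 nuclei, which are not scaled for depth. Clusters 30 and 32 were kept, and coefficients without them are not given here. They held most of these reference nuclei in male mate 2 and all of their Gad1 and Slc32a1 UMIs. That animal had 23.3 Gad1 and 12.3 Slc32a1 UMIs per 100 nuclei with the 2 clusters and 0 of each without them. On this scale Slc17a7 in oligodendrocyte-like and microglia-like nuclei had r = 0.271 (permutation p = 0.0889) with its value in the remaining nuclei. Its rho was 0.304 (permutation p = 0.0574). The adjusted p-values were 0.149 and 0.230 over the 4 genes examined. Leaving out male peer 8 and male peer 5, the animals farthest from the median on this scale, gave r = 0.135. The GABA genes had negative coefficients. Gad1 had r = -0.375 (permutation p = 0.0222, adjusted p = 0.0890) and rho = -0.0891 (permutation p = 0.585, adjusted p = 0.629), and r = -0.017 without female mate 6 and male mate 2, so its r rests on those animals. Gad2 had r = -0.243 (permutation p = 0.128) and Slc32a1 r = -0.232 (permutation p = 0.149), each with an adjusted p = 0.149. Their rho values were -0.135 and -0.0792. For Gad2, r was -0.0128 without male mate 2 and female mate 6. For Slc32a1, r was 0.0132 without male mate 2 and male mate 3.

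**Figure D3:**
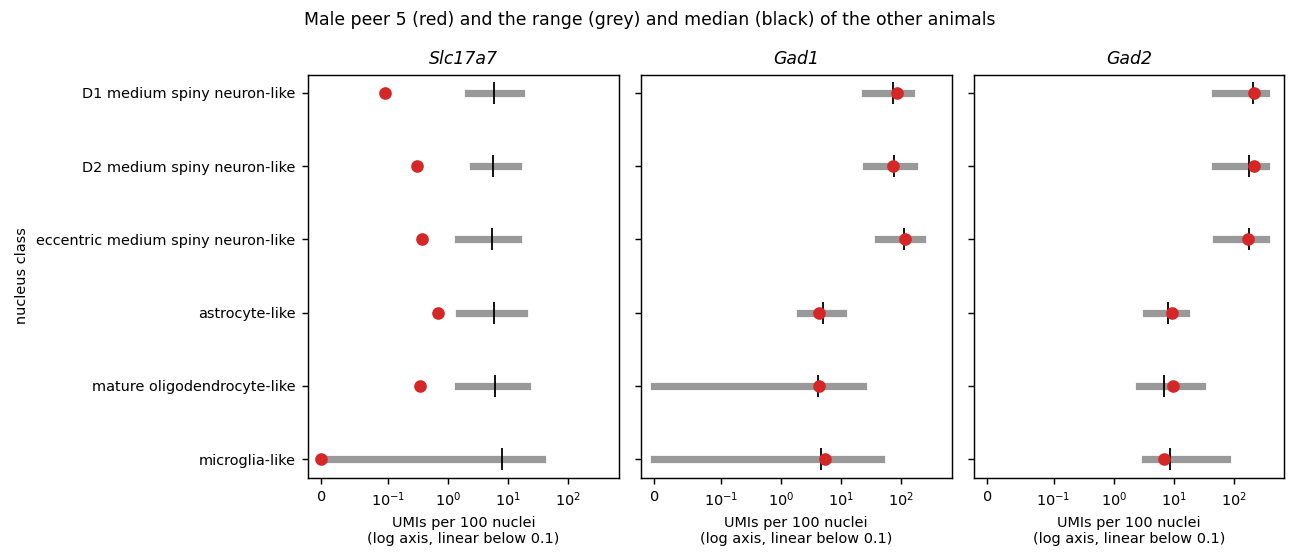
UMIs per 100 nuclei of Slc17a7, Gad1 and Gad2 (horizontal axis, log scale that is linear under 0.1) in 6 classes of nuclei that are not glutamate neuron-like. The red point of male peer 5 lies below the grey range of the other animals for Slc17a7 in 5 of them, at 0.0960 against 2.13 to 16.6 in D1 medium spiny neuron-like nuclei, and at 0, the low end of the range, in microglia-like nuclei. For Gad1 and Gad2 it lies inside the range.

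In all nuclei of an animal summed, Slc17a7 had 552 ± 213 CPM (SD, n = 40), with its lowest value, 5.87, in male peer 5 and its highest, 1076, in male mate 2. Female mate animals ranged from 236 to 753 with a median of 431 CPM, and female peer animals from 258 to 813 with a median of 602 CPM. Male mate animals ranged from 327 to 1076 with a median of 530 CPM, and male peer animals from 5.87 to 993 with a median of 590 CPM. All 4 groups overlapped. Gad1 was 371 ± 53.6 CPM (SD, n = 40), Gad2 was 637 ± 94.7 CPM and Slc32a1 was 347 ± 82.3 CPM (SD, n = 40). Slc17a6 was 16.1 ± 6.44, Slc17a8 2.15 ± 0.947, Chat 6.26 ± 2.49 and Slc5a7 10.3 ± 4.33 CPM (SD, n = 40).

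**Figure D4:**
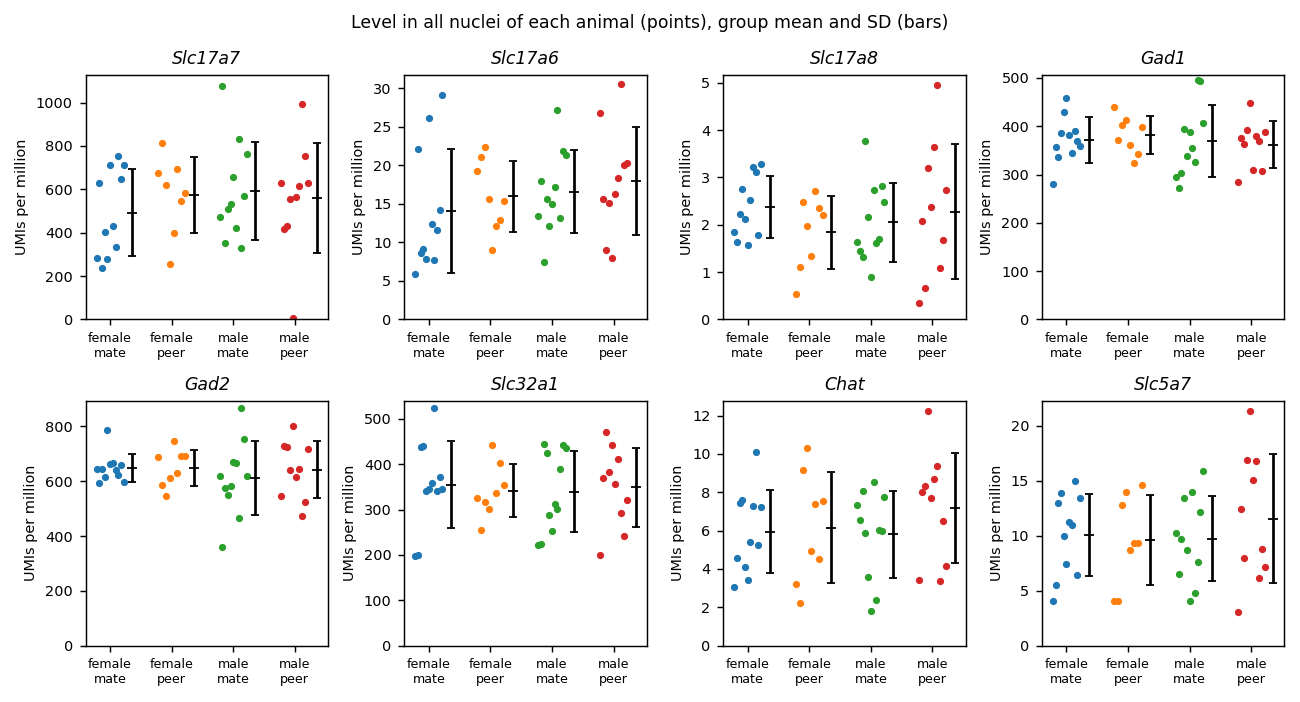
Level of each gene in all nuclei of each animal (vertical axis, CPM), by sex and pairing, with the group mean and SD as bars. The 4 groups overlap for every gene, and the lowest Slc17a7 point is male peer 5 at 5.87 CPM.

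The design asks whether a mate or a peer, or the sex of the animal, goes with different transmitter gene levels. UMIs of all nuclei were summed for each animal and tested with edgeR's quasi-likelihood test over 13723 genes, and a gene was called at an adjusted p under 0.05. The labels used here do not say which animals shared a cage, and partners may be among the 40, so these tests treat as independent animals that may not be. Between mate and peer animals 0 of the 8 genes were called, with 0% of all genes called, and 0 of the 8 had an unadjusted p under 0.05. The count from DESeq2 was likewise 0. Between females and males 0 of the 8 were called where 0.0219% of all genes were, and for the difference between the pairing differences of the sexes 0 were called with 0% of all genes. In both of these contrasts 0 of the 8 had an unadjusted p under 0.05, and DESeq2 called 0. Across the 13723 genes 960 had an unadjusted p under 0.05 for pairing.

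In all nuclei summed, the estimates bound the size of a difference only loosely for genes whose level there varies between animals. Slc17a7 differed by -0.06 (SE 0.24) on the log2 scale between mate and peer animals, with an edgeR adjusted p = 0.962. Without male peer 5 the value was -0.14 (SE 0.16). These values include the share of glutamate neuron-like nuclei, which ran from 0.623% to 44.8% of an animal's nuclei. Within glutamate neuron-like nuclei alone the Slc17a7 difference was 0.04 (SE 0.08). In all nuclei Gad1 differed by 0.00 (SE 0.07) and Gad2 by -0.04 (SE 0.08), the tightest of the estimates in all nuclei. Chat differed by -0.17 (SE 0.19), Slc5a7 by -0.08 (SE 0.20), Slc17a8 by 0.10 (SE 0.21), Slc17a6 by -0.13 (SE 0.18) and Slc32a1 by 0.01 (SE 0.12). Between females and males the log2 differences of the 8 genes lay between -0.21 for Slc17a6 and 0.04 for Gad2.

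Within classes 47 pairs of a transmitter gene and a class could be tested among 83466 pairs of any gene and class. The 47 include genes at their background level, such as Slc17a7, Gad1 and Gad2 in mature oligodendrocyte-like nuclei. For pairing 0 of the 47 were called, with 0% of all pairs, and 1 had an unadjusted p under 0.05. That was Gad1 in immature neuron-like nuclei, with a log2 difference of -0.30 (SE 0.11) for mate minus peer and an edgeR adjusted p = 0.947. For sex 0 of 47 were called where 0.0228% of all pairs were, and 3 had an unadjusted p under 0.05. That is 6.38% of the 47, against 5.21% of all pairs. For females minus males, Gad1 differed by -0.52 (SE 0.25) on the log2 scale in mature oligodendrocyte-like nuclei. That class includes cluster 32, and the 2 animals with at least 20 nuclei of it were male. Gad1 gave 30.7 and 37.5 UMIs per 100 nuclei of cluster 32 in male mate 2 and male peer 6. The part of this cluster in the difference was not tested. Without male mate 2, 2 of the 47 pairs had an unadjusted edgeR p under 0.05 for sex. Gad2 differed by 0.48 (SE 0.16) in oligodendrocyte precursor-like nuclei and Slc17a7 by -0.60 (SE 0.27) in immature neuron-like nuclei. For the interaction of sex and pairing 0 were called, with 0% of all pairs, and 0 of the 47 had an unadjusted p under 0.05. DESeq2 called 0 of the 47 in each of these 3 contrasts. The cholinergic interneuron-like and other GABA neuron-like classes had too few animals with 20 nuclei and were not tested.

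A list of 37 other transmitter genes, for synthesis, transport and breakdown, was followed in the same fits, and 35 of them were used. Of the 31 that passed the filter on low counts, 0 were called in any of the 3 contrasts and 0, 2 and 0 had an unadjusted p under 0.05 for pairing, sex and their interaction. The 2 for sex are 6.45% of the 31, and over all 13723 genes the shares were 7.00%, 7.92% and 1.97%. With DESeq2 0 were called. The lowest p-value in all nuclei was that of Slc18b1, a vesicular polyamine transporter, with a log2 difference of -0.19 (SE 0.09, edgeR adjusted p = 0.610) for females minus males. Within classes 226 pairs of these genes and a class were tested, of which 0 were called by edgeR or DESeq2, and 11, 6 and 10 had an unadjusted edgeR p under 0.05 for pairing, sex and their interaction. That is 4.87%, 2.65% and 4.42% of the pairs, where all 83466 pairs had 5.02%, 5.21% and 2.71%. In all nuclei the median log2 difference of the 31 genes between mate and peer was -0.07, against -0.01 over all genes tested.

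The share of nuclei in each category was compared between groups by an exact two-sided permutation test of animals, for 5 categories and 3 contrasts, which makes 15 comparisons. None of the 15 had an adjusted p under 0.05. Nuclei with glutamate genes only made up 12.2% ± 5.49 (SD, n = 22) in mate and 13.0% ± 4.91 (SD, n = 18) in peer animals. The difference averaged over the sexes was -0.838 percentage points (exact permutation p = 0.616, adjusted p = 0.862). It was -1.61 without male mate 2, -1.53 without male peer 5 and -0.497 without female peer 1. Nuclei with GABA genes only differed by 1.11 percentage points (exact permutation p = 0.478, adjusted p = 0.862). That difference was 2.27 (exact permutation p = 0.424, adjusted p = 0.738) without thinning and 1.83 (exact permutation p = 0.534, adjusted p = 0.845) at 1000 UMIs.

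The lowest raw p-value was that of the cholinergic category between mate and peer animals. Any nucleus with a Chat or Slc5a7 UMI falls in this category. As given above, it therefore includes oligodendrocyte precursor-like nuclei and is not a count of cholinergic interneuron-like nuclei. The share of the category was 0.466% ± 0.176 (SD, n = 22) in mate and 0.587% ± 0.238 (SD, n = 18) in peer animals. The difference averaged over the sexes was -0.120 percentage points (exact permutation p = 0.0845, adjusted p = 0.780). Without female peer 1 the difference was -0.148 (exact permutation p = 0.0323, adjusted p = 0.484). With nuclei thinned to 1000 UMIs it was -0.0123 (exact permutation p = 0.915, adjusted p = 0.915), and with 2 UMIs required and no thinning -0.0458 (exact permutation p = 0.479, adjusted p = 0.904). Not thinned it was -0.119 (exact permutation p = 0.255, adjusted p = 0.738), and it was -0.111 with doublets kept, -0.116 without male mate 2 and -0.106 without male peer 5. Thinning to 1000 UMIs also leaves out shallower nuclei. It kept 117798 of the 178387, from 7.35% of those of male mate 2 to 74.8% in the library that kept most. Mate animals ranged from 0.150% to 0.730% and peer animals from 0.198% to 1.22%, so the groups overlapped. Nuclei with glutamate and GABA genes ranged from 0.138% in male peer 5 to 5.48% in female peer 1, and their share differed by -0.224 percentage points between mate and peer animals (exact permutation p = 0.513, adjusted p = 0.862). Without female peer 1 that difference was 0.0432.

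**Figure D5:**
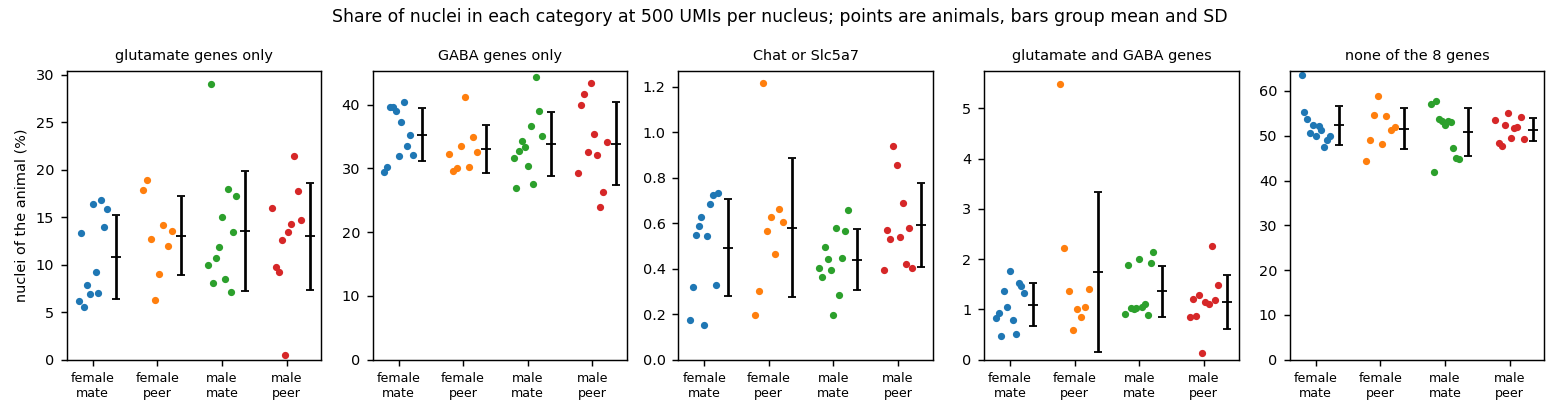
Percent of each animal's nuclei in 5 transmitter categories at 500 UMIs per nucleus (vertical axes), by sex and pairing, with group mean and SD as bars. The groups overlap in each category, and female peer 1 stands apart at 5.48% for glutamate and GABA genes and male peer 5 at 0.508% for glutamate genes only.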

How the data were processed

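For each of 40 animals the authors deposited 1 matrix of unnormalized UMI counts, made with Cell Ranger 3.1.0 per the submitters' processing notes. The genome build is not given in the sources used here, and RefSeq's MicOch1.0 table served for names only. Barcodes under 500 UMIs or over 5% mitochondrial UMIs were left out, and 7608 called doublets (4.09%, at an assumed rate of 0.8% per 1000) were removed. Doublets were scored by simulated pairs, so some remain. The 2000 variable genes behind the 30 principal components and the Leiden clusters (resolution 1, 15 neighbours) held none of the transmitter genes. Clusters were named from marker lists, except cluster 18, whose leading genes went against its list.

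UMIs summed per animal were tested with edgeR 4.0.16, with DESeq2 1.42.0 as an alternative, and shares with exact permutation over animals. In data simulated for the pairing comparison edgeR recovered 85 of 100 genes changed 1.5-fold and 94 of 100 changed 2-fold, with 9 false calls in all. The changed genes were drawn at random and the animals simulated as independent. The recovery therefore does not give the power for any single transmitter gene. Each animal is 1 replicate. Replicate numbers only name animals, and cage partners, which the labels used here do not identify, were not modelled. The genes and lists were chosen with earlier results of these data known. All transmitter genes and the 3 genes most like each were named, and of the other transmitter list those called or the 2 with the lowest p. Results for some genes are not reported here.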

Additional observations from a re-analysis of the deposited data

Results flagged for a closer look

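Group values with a lone high or low animal were looked for in the female peer and male peer groups, which have 8 and 10 animals. Of 26 sets of values 3 held such an animal, by the gap to the nearest animal divided by the whole range, and chance marks about 1 in 20. All 3 were in the female peer group. The share of nuclei with glutamate and GABA genes was 5.48% in female peer 1, where the next highest female peer had 2.23%. That library had a median of 917 UMIs per nucleus and a median mitochondrial share of 0.732%, and their part in the share was not tested. The share with any cholinergic gene was 1.22% in female peer 3 and 0.662% in the next. The share with GABA genes only was 41.2% in female peer 5 and 34.9% in the next.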

How the results depend on the processing

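No paired analysis was possible because replicate numbers only name animals and the labels used here name no couples. No transmitter gene was called in any contrast under any alternative run (39 checks, all with a count of 0), with adjusted p-values between 0.701 and 1.00 in all nuclei and between 0.484 and 0.978 for the shares. The direction of values near 0 was not stable. With blocks of 10 label numbers the log2 difference between mate and peer became 0.020 for Gad2, 0.016 for Slc17a7 and 0.016 for Slc5a7, and the interaction became 0.020 for Gad1 and -0.0030 for Slc32a1. Without male mate 2 the sex difference of Slc32a1 became -0.011, and without male peer 5 the interaction of Slc17a6 became 0.028. Removing male peer 5 was chosen after seeing the data, as were the removals of female peer 1 and of clusters 30 and 32.

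Shares changed direction as follows, in percentage points. Without male mate 2 the sex difference in GABA genes only was -0.0449. Thinned to 1000 UMIs, the cholinergic sex difference was -0.0475 and its interaction -0.185, the glutamate and GABA difference was 0.254 for pairing and -0.428 for sex, and the empty category had -1.42 for pairing and -0.476 for the interaction. Not thinned, the empty category had -0.710 and -2.74, and at 2 UMIs -0.189 and -3.25. Without female peer 1 the glutamate and GABA difference was 0.0432 for pairing and -0.106 for sex, and the empty category had -0.445 for pairing. The cause was not tested. All 72 levels by class that could be computed at both resolutions stayed within 1 SD at resolution 2. The naming of nuclei changed more. The ependymal-like class held 176 nuclei at resolution 2 against 2002 at resolution 1. A cluster of 10851 nuclei led by Col24a1, which scored highest on the D1 medium spiny neuron list, was left unnamed at resolution 2. Depth limits the categories, and a count of 0 in a nucleus does not show that a gene is silent.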
